A study of Homo sapiens with 3 samples.

Results

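The chromatin sites at which p53 was called in both ERG shRNA libraries of VCaP cells are described here. A peak of the first ERG shRNA list and a peak of the ERG shRNA 2 list counted as shared when they overlapped by 1 bp or more. Chromosome X at 66 to 67 Mb and chromosome 8 at 87 to 88 Mb were left out of every list. This gave 53 pairs of overlapping peaks, made of 53 of 17313 ERG shRNA peaks and 52 of 194 ERG shRNA 2 peaks. The 3 libraries of the series listed 35740 peaks in all.

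VCaP cells are an established line from a human prostate cancer, and their p53 has the change R248W. Chromatin bound by p53 was immunoprecipitated and sequenced (ChIP-seq) in cells with a first ERG shRNA, in cells with an ERG shRNA numbered 2 (ERG shRNA 2 below), and in cells with a luciferase shRNA as the control. Each group was 1 library pooled from several immunoprecipitations, so values are descriptions of these libraries, with no replicate check and no test. The DO-1 antibody is named in the labels of ERG shRNA and luciferase shRNA. The label of ERG shRNA 2 names no antibody, but the series design names DO-1. The promoter that drives the hairpins and the depletion of ERG are not given in the sources used here.

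p53 is a transcription factor that binds DNA through its central domain, and R248 lies where that domain touches DNA. Mutants of this residue bind the normal p53 motif poorly and can reach chromatin through partner proteins. ERG is an ETS family transcription factor that VCaP cells express at a high level from a fusion of the androgen-responsive TMPRSS2 gene with ERG. Different hairpins against a gene share their target but not their unintended targets, which is why a second one is used.

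The libraries differed in depth and the lists in length. ERG shRNA held 4853617 tags, ERG shRNA 2 held 52175068 and luciferase shRNA 9258451, each set against an input of 14360465 tags. Input file names are not the same in all headers, and only the equal totals point to the same input. Outside the left-out regions the lists held 17313, 194 and 17930 peaks in that order. In the left-out regions they held 8, 239 and 56 peaks. The alignments of ERG shRNA 2 carry another date-like tag than the others, per the file headers, so hairpin and batch cannot be told apart. The pileup is the height of extended tags at the summit. ERG shRNA 2 pileups are scaled down by 0.275, and those of the other libraries are unscaled tags. The fold is that height over the local background with 1 added to each. Both are the authors' values, and each was read only within its own list, since depth, scaling and background differ. Where values of several libraries stand side by side, their sizes are not compared.

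The shared share was read in each direction, and since both rest on the same pairs, the list lengths set which is larger. An ERG shRNA peak overlapped 52 of the 194 ERG shRNA 2 peaks (26.8%, exact 95% Clopper-Pearson interval 20.7 to 33.6). Conversely, an ERG shRNA 2 peak overlapped 53 of 17313 ERG shRNA peaks (0.306%, 0.229 to 0.400). With the ERG shRNA list cut to its 194 strongest peaks both shares were 3.61%, and with no region left out the first was 12.0%. Intervals here and later cover counting error only. One ERG shRNA 2 peak, on chromosome 9 at 96785559 to 96785787, overlapped 2 ERG shRNA peaks, and all other pairs were one to one.

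The paired peaks lay well on top of each other in most cases. The overlap ranged from 14 to 384 bp with a median of 137 bp. Summits were a median of 43 bp apart (quartiles 12 to 93), within 50 bp in 29 pairs and beyond 150 bp in 6. In 13 pairs the ERG shRNA peak lay inside the ERG shRNA 2 peak, in 9 it was the other way round, and in 31 the peaks were staggered. Just inside the overlap rule were pairs with 14, 44 and 47 bp in common. Just outside it were ERG shRNA 2 peaks that missed an ERG shRNA peak by 76, 92 and 104 bp. Of the 142 unshared ERG shRNA 2 peaks, 24 had an ERG shRNA peak within 1000 bp and 80 within 10 kb.

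The 5 shared sites of highest fold in the ERG shRNA list lay above its 99th percentile, and all 5 also had a luciferase peak. The site on chromosome 13 at 102294093 to 102294273 (coordinates here are those of ERG shRNA 2, in hg19) had a pileup of 38 in ERG shRNA and 42 in luciferase shRNA. In ERG shRNA 2 its pileup was 11.56, which is 42 tags before scaling. Its folds were 29.1 in ERG shRNA, 6.28 in ERG shRNA 2 and 26.1 in luciferase shRNA. In the same order, the site on chromosome 4 at 139803157 to 139803311 had pileups of 41, 15.96 (58 tags before scaling) and 43. Its folds were 25.1, 5.65 and 19.2. Both were also above the 99th percentile by fold of the luciferase list.

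Next by ERG shRNA fold came chromosome 8 at 79680765 to 79680926, with a fold of 18.2 in ERG shRNA, 5.79 in ERG shRNA 2 and 20.5 in luciferase shRNA. Chromosome 15 at 53231369 to 53231555 had folds of 14.1, 5.69 and 8.62 in that order. Chromosome 2 at 83321486 to 83321650 had folds of 12.2, 6.38 and 11.4. Over these 5 sites the ERG shRNA folds ran from 12.2 to 29.1 and the ERG shRNA 2 folds from 5.65 to 6.38. These sites were the shared ones of 137 ERG shRNA peaks at 10-fold or more (3.65%, 1.20 to 8.31), against 0.306% of the whole ERG shRNA list. The other 132 had no ERG shRNA 2 peak.

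The next 5 by ERG shRNA fold also had a luciferase peak each. So did the strong unshared ERG shRNA peaks named further below. Chromosome 2 at 114857556 to 114857721 had folds of 9.94 in ERG shRNA, 6.75 in ERG shRNA 2 and 7.30 in luciferase shRNA. Chromosome 10 at 93494509 to 93494663 had 9.94, 5.24 and 4.64. The remaining ones were chromosome 6 at 62347673 to 62347832, chromosome 2 at 40719702 to 40719855 and chromosome 11 at 133514178 to 133514344. Their ERG shRNA folds were 9.12, 9.09 and 9.005, their ERG shRNA 2 folds 5.69, 4.77 and 6.01, and their luciferase folds 7.96, 9.73 and 7.77.

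Ranked by the ERG shRNA 2 fold, other sites led. The highest fold, 6.90, was reached at chromosome 12, 60411194 to 60411374, and at chromosome Y, 438016 to 438424, both with a pileup of 11.56, which is 42 tags before scaling. In ERG shRNA these sites had pileups of 9 and 7 and folds of 8.29 and 6.63, and in luciferase shRNA folds of 10.6 and 5.31. Chromosome 16 at 32827312 to 32827673 was the fourth, with a fold of 4.50 in ERG shRNA and 6.71 in ERG shRNA 2, and it was the only one of the first 10 with no luciferase peak. Of the first 10 by either hairpin's fold, 4 were the same sites.

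The first 10 by ERG shRNA 2 fold also held chromosome 5 at 71055820 to 71055978 and chromosome 2 at 156303394 to 156303550. Their folds were 4.97 and 5.80 in ERG shRNA, 6.15 and 5.85 in ERG shRNA 2, and 8.62 and 11.9 in luciferase shRNA. The last of them was chromosome X at 488036 to 488389, with folds of 4.97 in ERG shRNA, 5.85 in ERG shRNA 2 and 5.31 in luciferase shRNA.

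Whether the chromosome X site and the chromosome Y site at 438016 are 1 place or 2 cannot be told apart. The tips of X and Y carry the same sequence in the pseudoautosomal region, where a tag can be placed on either chromosome. The ERG shRNA 2 starts of the X and Y peaks differed by 50020 and the ERG shRNA starts by 50014 bp. A further shared peak lay close by on chromosome Y, at 438965 to 439199, with folds of 5.80 in ERG shRNA and 5.39 in ERG shRNA 2 and no luciferase peak.

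**Figure D1:**
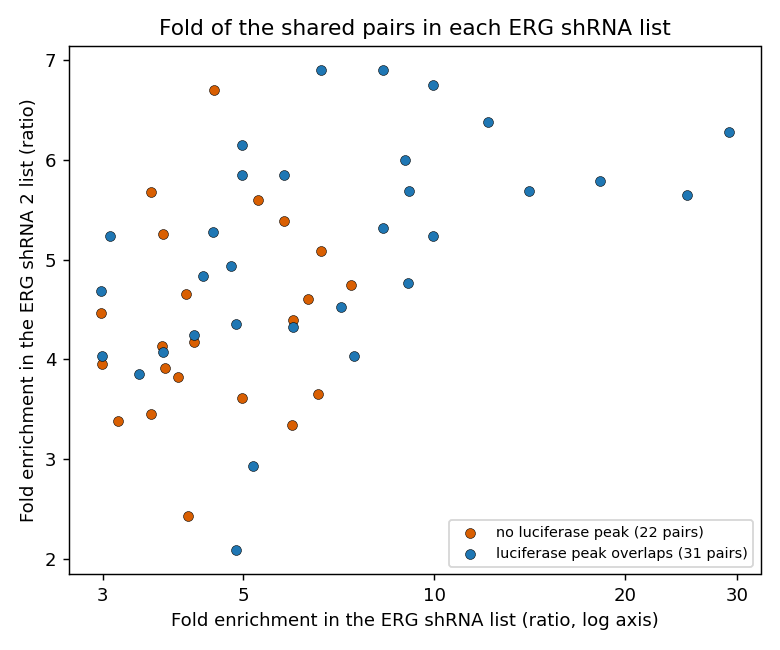
Fold enrichment of the 53 shared pairs, in the ERG shRNA list on the x axis (log axis) and in the ERG shRNA 2 list on the y axis, with 1 point a pair, coloured by whether a luciferase peak overlaps. The 5 pairs with an ERG shRNA fold of 12.2 or more all have a luciferase peak and sit between 5.65 and 6.38 on the y axis.

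Across the 53 pairs the folds of the hairpins ran loosely together, with a Spearman rho of 0.50 as a description. It was 0.17 over the 22 pairs with no luciferase peak and 0.56 over the 31 pairs with one. The points are not independent, since several lie close together and the libraries may share an input. Split at the median fold of the pairs in each list, 17 pairs were high in both, 18 in neither, 9 in ERG shRNA only and 9 in ERG shRNA 2 only. Pileup had a rho of 0.17 and width one of -0.10.

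Within each list the shared peaks as a whole had higher median folds than the others. In ERG shRNA the median fold was 4.98 for shared peaks and 4.18 for the other 17260 peaks. There it was 5.98 for the 31 shared peaks with a luciferase peak, but 4.13, not above the others, for the 22 with none. In ERG shRNA 2 it was 4.76 for shared peaks and 3.54 for the other 142. The median shared peak stood at the 82.6th percentile by fold of the ERG shRNA list and at the 80.7th of the ERG shRNA 2 list. In ERG shRNA 24 of the 53 shared peaks were above the 90th percentile, while 16 were in the lower part of the list, at or under the 50th.

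Pileup and width ranked differently in the lists. In ERG shRNA the shared peaks were taller and wider, with a median pileup of 7 tags (range 3 to 41) and 162 bp, against 5 tags and 115 bp for the others. Peaks at the least width that the tag extension of 115 bp allows made up 24.5% of the shared and 54.9% of the other ERG shRNA peaks. In ERG shRNA 2 the shared peaks were not taller or wider at the median: their pileup was 10.73 and their width 185 bp, against 11.70 and 206 bp for the others. The background was recovered from the pileup and fold of each peak, so it is tied to them. In ERG shRNA 2 its median was 1.55 times the genome-wide minimum of that list for shared peaks and 2.45 times for the others. In ERG shRNA the order was the opposite, with 1.63 times the minimum of that list for shared peaks and 1.32 times for the others.

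Wide peaks of one list could have a narrow or a wide partner in the other. At chromosome Y, 438016 to 438424, the ERG shRNA 2 peak was the widest shared one of its list at 409 bp, and the ERG shRNA peak there was 140 bp. At chromosome 10, 93494509 to 93494663, the ERG shRNA 2 peak was 155 bp, and the ERG shRNA peak was 456 bp. The widest shared ERG shRNA peak, 494 bp, was at chromosome 7, 24088 to 24471, where the ERG shRNA 2 peak was 384 bp. That site had the tallest shared ERG shRNA 2 pileup, 30.28, and the lowest shared ERG shRNA 2 fold, 2.09, on a background 17.1 times the minimum. In ERG shRNA 13 shared peaks had the least width of 115 bp, and in ERG shRNA 2 3 had the least width of 154 bp.

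**Figure D2:**
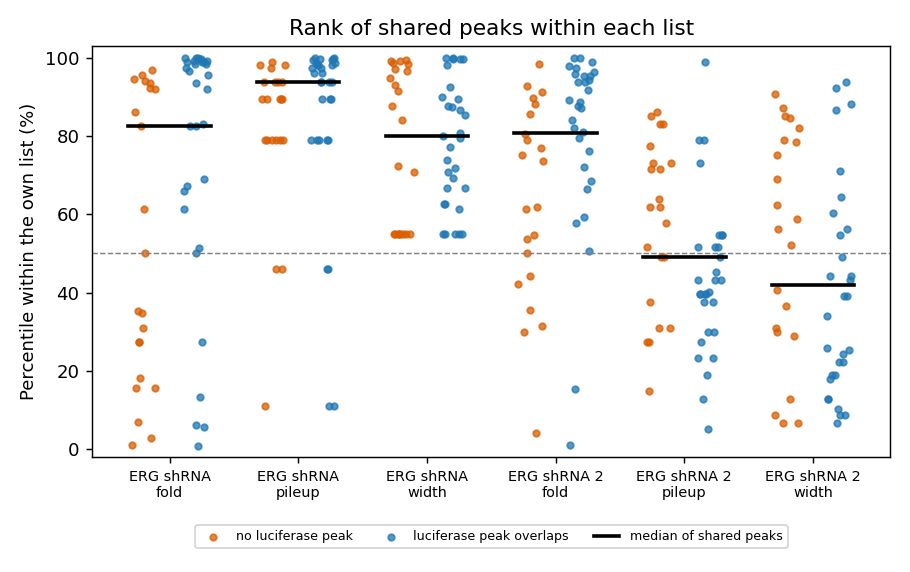
Percentile of each shared peak within its own list (y axis, %) by fold, pileup and width, for ERG shRNA on the left and ERG shRNA 2 on the right, with 1 point a peak and a black bar at the median. The bars stand at 82.6, 93.9 and 80.1 in ERG shRNA and at 80.7, 49.0 and 42.0 in ERG shRNA 2. Ties count as at or below, so even the least ERG shRNA width, 115 bp, stands at 54.8 and no point can be lower.

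In both lists the shared share was highest in the top bin by fold, but the very strongest ERG shRNA peaks were not shared. With the ERG shRNA 2 list cut by fold into 4 bins of equal size, 31 of 49 peaks (63.3%, 48.3 to 76.6) in the top bin were shared. The lower bins, from strong to weak, had 12 of 48 (25%, 13.6 to 39.6), 6 of 49 (12.2%, 4.63 to 24.8) and 3 of 48 (6.25%, 1.31 to 17.2). With the ERG shRNA list cut into 10 such bins, 24 of 1732 peaks (1.39%, 0.890 to 2.05) in the top bin were shared, and in every lower bin the share was 0.347% or less. The lower bins of ERG shRNA showed no steady order, from 0 of 1731 peaks in the fifth from the bottom, with an upper bound of 0.213%, to 6 of 1731 in the lowest. The highest ERG shRNA fold, 191.4 at chromosome 22, 29682865 to 29683174, was at an unshared peak, while the highest shared one was 29.1. Chromosome 1 at 166245446 to 166246891, with a fold of 146.9, and chromosome 14 at 36350195 to 36350834, with 88.2, were also unshared. Each of these unshared peaks had a luciferase peak.

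**Figure D3:**
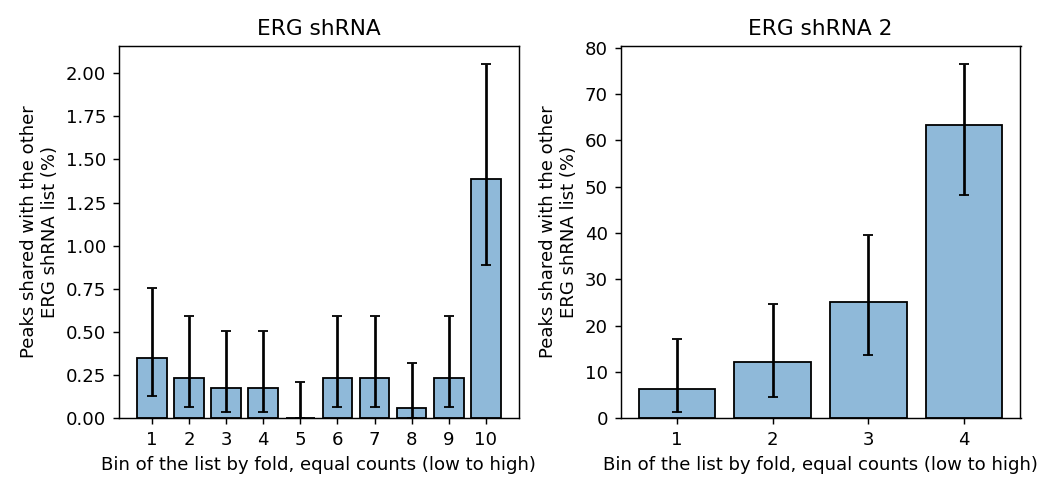
Share of peaks overlapped by a peak of the other ERG shRNA list (y axis, %), in 10 bins of the ERG shRNA list (left) and 4 bins of the ERG shRNA 2 list (right), ordered by fold. Bars are shares and error bars exact 95% intervals for counting error. The top bin stands highest in each panel, at 1.39% and 63.3%.

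The authors' q value separated the ERG shRNA 2 peaks in the same way. A q of at most 0.05 was reached by 19 of 52 shared ERG shRNA 2 peaks (36.5%, 23.6 to 51.0) and by 8 of the 142 others (5.63%, 2.46 to 10.8). Put the other way, 19 of the 27 ERG shRNA 2 peaks at that level were shared. In ERG shRNA 40 of 53 shared peaks (75.5%, 61.7 to 86.2) and 12536 of the other 17260 (72.6%, 72.0 to 73.3) reached it, a difference within the interval of the shared peaks.

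The 3 unshared ERG shRNA 2 peaks of highest fold lay above the median fold of the shared ones, 4.76. Chromosome Y at 9934772 to 9935004 had a fold of 6.27, chromosome 21 at 9473730 to 9473902 one of 5.68, and chromosome 1 at 148859256 to 148859475 one of 5.58. None had a luciferase peak. The nearest ERG shRNA peaks were 16131, 3699 and 141 bp away in that order.

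Shared peaks lay on 20 of the 24 main chromosomes. Chromosome 2 held the most, 8 of its 15 ERG shRNA 2 peaks, followed by chromosome 9 with 5 of 19 and chromosomes 8 and 16 with 4 of 13 each. Chromosome 15 shared 3 of 5. Chromosomes 14, 18, 19 and 22 had none, with 1, 0, 0 and 1 ERG shRNA 2 peaks to share. Contigs (unplaced or alternative sequence) held 3 shared peaks among 21 ERG shRNA 2 peaks. Chromosome X stood out in the other direction, with 1 of 20. There, 19 of the 20 lay at 67 to 68 Mb, next to the left-out region, and none of these 19 was shared although ERG shRNA had 7 peaks in that window and luciferase shRNA 13.

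**Figure D4:**
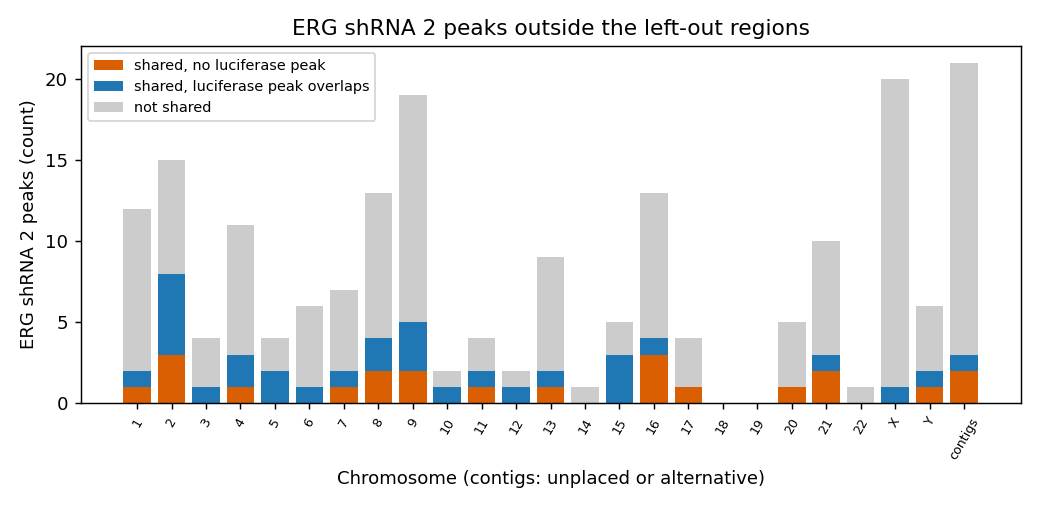
Number of ERG shRNA 2 peaks outside the left-out regions (y axis, count) by chromosome (x axis), stacked as shared with no luciferase peak, shared with a luciferase peak, and not shared. Chromosome 2 has 8 shared peaks of 15 and chromosome X has 1 of 20.

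Few 1 Mb windows held more than 1 shared peak, the first Mb of chromosome Y with its 2 among them. On chromosome 2 at 87 to 88 Mb both ERG shRNA 2 peaks were shared, and neither had a luciferase peak. On chromosome 16 at 32 to 33 Mb 2 of 7 were shared, on chromosome 9 at 68 to 69 Mb 2 of 7, on chromosome 21 at 10 to 11 Mb 2 of 4, and on chromosome 15 at 20 to 21 Mb 2 of 3. Those windows were also crowded in ERG shRNA, with 53, 31, 37 and 52 peaks.

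Many shared sites flanked a long stretch without peaks. On each main chromosome the longest stretch without a luciferase peak was taken as a landmark. Centromeres are such stretches in assembled genomes, since their repeats leave few places for tags, but the landmark was not compared with an hg19 annotation. Within 5 Mb of it lay 19 of 52 shared ERG shRNA 2 peaks (36.5%, 23.6 to 51.0), against 86 of all 194 (44.3%, 37.2 to 51.6). For ERG shRNA it was 19 of 53 shared peaks (35.8%, 23.1 to 50.2), against 2435 of all 17313 (14.1%, 13.5 to 14.6). The share near the landmark was thus higher among shared than among all ERG shRNA peaks, and not higher than among all ERG shRNA 2 peaks. On chromosome 17 the longest stretch was at 70047111 to 73776106, while the shared peak at 25301454 to 25301703 lay in the second longest, at 22146635 to 25303365. On chromosome Y the longest was at 28676393 to 59185761. The unshared ERG shRNA 2 peak there at 9934772 to 9935004 lay in the second longest, at 9810194 to 13398164. Both of these peaks counted as away from the landmark.

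Away from the landmark and the contigs, 30 of 87 ERG shRNA 2 peaks (34.5%, 24.6 to 45.4) were shared, against 19 of 86 (22.1%, 13.9 to 32.3) near it and 3 of 21 (14.3%, 3.05 to 36.3) on contigs. The intervals overlap. The shared peaks away from it had a median fold of 6.33 in ERG shRNA and 5.30 in ERG shRNA 2, and those near it 4.32 and 4.46.

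Most shared sites were not restricted to the ERG shRNA libraries. A luciferase peak overlapped 30 of the 52 shared ERG shRNA 2 peaks (57.7%, 43.2 to 71.3), against 23.7% of all ERG shRNA 2 peaks and 11.3% (6.58 to 17.7) of the 142 unshared ones. Among ERG shRNA peaks it overlapped 31 of the 53 shared (58.5%, 44.1 to 71.9), against 14.0% of all and 13.9% (13.4 to 14.4) of the unshared ones. Both peaks of each pair gave the same answer. In all, 30 of 194 ERG shRNA 2 peaks had both an ERG shRNA and a luciferase peak, 22 an ERG shRNA peak only, 16 a luciferase peak only and 126 neither. The luciferase peaks at shared sites were tall within their own list, with a median pileup of 11.5 and fold of 6.59, against 6 and 4.38 over the whole list. In 17 of the 31 pairs the luciferase peak was above the 90th percentile of its list by fold.

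That left 22 shared peaks in each ERG shRNA list with no luciferase peak (42.3% of the shared ERG shRNA 2 peaks, 28.7 to 56.8, against 76.3% of all ERG shRNA 2 peaks). Of these, 12 lay within 5 Mb of the landmark, 2 on contigs and 8 elsewhere. All 194 ERG shRNA 2 peaks, with or without a luciferase peak, split into 86 (44.3%), 21 (10.8%) and 87 (44.8%) in that order. A luciferase peak overlapped 7 of 19 shared peaks near the landmark (36.8%, 16.3 to 61.6) and 22 of 30 elsewhere on the main chromosomes (73.3%, 54.1 to 87.7). Among unshared ERG shRNA 2 peaks it overlapped 7 of 67 (10.4%) and 6 of 57 (10.5%) in that order. The landmark was itself drawn from the luciferase list, so it is not independent of luciferase overlap.

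The 22 were weaker and sat on a higher background than the shared sites with a luciferase peak. Their median fold was 4.13 in ERG shRNA and 4.28 in ERG shRNA 2, against 5.98 and 5.26 for those with one. Their median pileup was 6 in ERG shRNA, against 7, but 12.39 in ERG shRNA 2, against 10.05. The median background was 3.27 times the minimum in ERG shRNA and 2.45 times in ERG shRNA 2, against 1.28 and 1.22 times. Unshared peaks had median folds of 4.18 in ERG shRNA and 3.54 in ERG shRNA 2, and backgrounds of 1.32 and 2.45 times the minimum. The 22 were thus close to unshared peaks by fold in ERG shRNA and by background in ERG shRNA 2. In ERG shRNA 2, 2 of the 22 had a background at the genome-wide minimum, against 11 of 30 with a luciferase peak and 8 of the 142 unshared peaks. Since the background was recovered from the fold and pileup of the same peaks, it is not a separate measure. Its part in these differences was not tested.

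**Figure D5:**
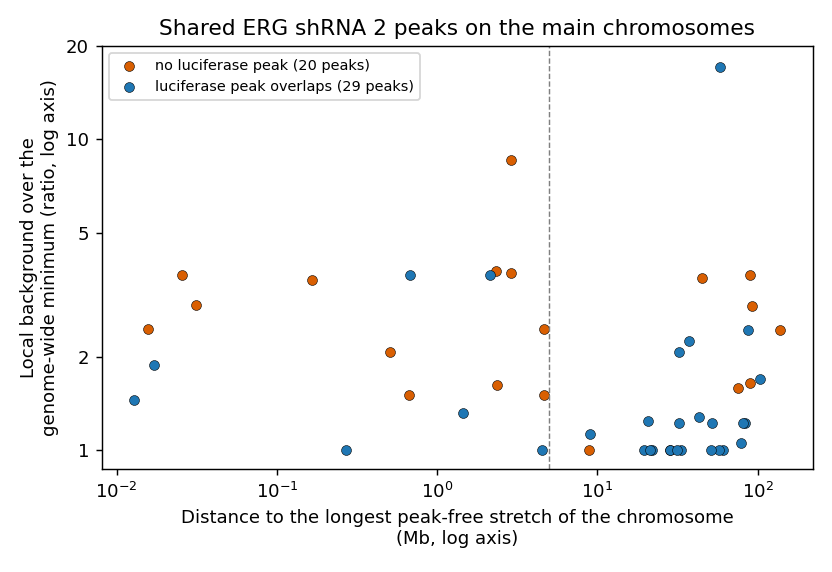
Local background of the shared ERG shRNA 2 peaks over the genome-wide minimum of that list (y axis, ratio, log axis) by distance to the longest stretch of the chromosome without a luciferase peak (x axis, Mb, log axis). Each point is a peak, coloured by luciferase overlap, and the dashed line marks 5 Mb. Of the 20 peaks with no luciferase peak, 12 lie left of the line, and of the 29 with one, 7 do. The x axis and the colours both rest on the luciferase list, so they are not independent.

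No luciferase peak did not mean none nearby. Of the 22, 5 had a luciferase peak within 1000 bp, 15 within 10 kb and all 22 within 100 kb, with a median distance of 2.92 kb. Of the 126 ERG shRNA 2 peaks overlapped by neither list, 12, 52 and 115 had one within these distances, and the median was 13.6 kb. The closest was at chromosome 8, 122521051 to 122521222, where a luciferase peak lay 23 bp away. Its pileup was 6 in ERG shRNA and 11.84 in ERG shRNA 2, and its folds 5.28 and 5.60. The farthest was chromosome 11 at 42701664 to 42701833, 87200 bp from the nearest luciferase peak, with pileups of 7 and 8.26 and folds of 6.63 and 5.09. It was also 1 of the 2 with a background at the minimum, the other being the second chromosome Y peak.

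Of the 8 away from the landmark, 4 have been named above, on chromosomes 8, 11, 17 and Y. The chromosome 17 peak at 25301454 had pileups of 10 in ERG shRNA and 17.06 in ERG shRNA 2, and folds of 6.33 and 4.601. Chromosome 7 at 151985881 to 151986194 had folds of 4.18 and 4.17, and chromosome 13 at 110580250 to 110580463 had 3.73 and 4.13. Chromosome 8 at 137177765 to 137177918 had 2.99 and 3.96, on a pileup of 3 in ERG shRNA and an overlap of 14 bp, the smallest of all. Chromosome 4 at 190845711 to 190846010 had 3.76 and 3.91.

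Near the landmark, 6 of the 12 shared peaks with no luciferase peak lay 2 to a 1 Mb window, on chromosomes 2, 9 and 16. Besides the chromosome 16 peak at 32827312, the 12 included chromosome 16 at 32849045 to 32849270, with folds of 3.94 in ERG shRNA and 3.82 in ERG shRNA 2, and at 46496035 to 46496188, with 2.98 and 4.46. Chromosome 2 had 3: at 87588151 to 87588333 with folds of 3.58 and 3.45, at 87593045 to 87593306 with 3.74 and 5.26, and at 91738245 to 91738492 with 3.58 and 5.68. Chromosome 9 had peaks at 68393491 to 68393835, with folds of 7.38 and 4.75, and at 68405802 to 68405956, with 4.09 and 2.43. The first of these had the highest ERG shRNA fold of all 22, and 66 tags at the ERG shRNA 2 summit before scaling.

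Chromosome 21 had peaks at 9450258 to 9450414, with folds of 5.97 in ERG shRNA and 3.35 in ERG shRNA 2, and at 10089969 to 10090179, with 5.98 and 4.39. Chromosome 20 at 29589272 to 29589480 had 4.06 and 4.66, and chromosome 1 at 142584067 to 142584246 had 4.98 and 3.61. The contig peaks were on chrUn_gl000231 at 21660 to 21864, with folds of 3.17 and 3.38, and on chrUn_gl000245 at 34312 to 34482, with 6.56 and 3.65. Such neighbouring peaks are not independent of each other, and sequence copies of these sites were not analysed here. No gene is assigned to a site, since the gene table used covers another build, GRCh38.p14.

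Calls in ERG shRNA rested on few tags and many in ERG shRNA 2 had a weak q, which limits each single pair. The 22 had 3 to 12 tags at the ERG shRNA summit and 27 to 67 at the ERG shRNA 2 summit before scaling. Their −log10 q in ERG shRNA 2 had a median of 0.61 and a lower quartile of 0, and in ERG shRNA a median of 1.74. At stricter strength they thinned out, as did the shared peaks as a whole. With the ERG shRNA list at a q of at most 0.05, 14 of 40 shared ERG shRNA 2 peaks had no luciferase peak. With both ERG shRNA lists at a fold of at least 4, 9 of 33 had none, against 22 of 52 with no such cut. When only the 194 ERG shRNA peaks of highest fold were kept, 7 pairs were left and none lacked a luciferase peak. The share with a luciferase peak over all ERG shRNA peaks kept at each cut is not given here. The strong unshared ERG shRNA peaks named above on chromosomes 22, 1 and 14 had a luciferase peak too.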

How the data were processed

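Peak lists from p53 ChIP-seq of 3 VCaP libraries were used, 1 library per group. Bowtie2, Picard 2.14.0, bedtools, MACS2 and hg19 are named in the submitters' processing notes, without roles. MACS 2.2.7.1 was run on every library alone against an input, per the file headers, with a p cutoff of 0.001 and 1 tag kept per position, after scaling the larger data set to the smaller. The pileup that the authors deposited is the coverage signal at a summit. Their deposited fold is the ratio of this pileup to the background around it, after 1 is added to both. The deposited −log10 p and q columns had damaged names and were read in the order of the MACS layout. Peak widths are deposited in bp.

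Every listed peak outside the 2 left-out regions was used. Pairs were found with Python 3.11.15, numpy 2.4.6, pandas 2.3.3 and scipy 1.17.1, and their number, 53, equalled that of bedtools 2.31.1. On 1000 simulated peaks, 200 made to overlap, 0 were misassigned. Background was recovered as (pileup + 1) / fold − 1, and called at the minimum within 1%. ERG shRNA 2 pileups divided by the input to library tag ratio, 0.275, gave whole tags for 100% of peaks within 0.05 tags. Percentiles count the peaks of a list at or below a value. Members, lists and landmarks were chosen with earlier results of these data known. Sites named with their folds are the first 10 pairs by either fold, those with no luciferase peak, the widest shared peaks and the 3 strongest unshared ERG shRNA 2 peaks. Some strong unshared ERG shRNA peaks are also named. Pileup and width are given for some sites only, and peaks of the least width were only counted. Matplotlib 3.10.9 drew the figures. No gene or motif was assigned and no sequence is shown, since the reference tables used cover another build.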

Additional observations from a re-analysis of the deposited data

How the results depend on the processing

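Of 56 alternative values under 11 settings, 26 stayed within the counting interval of the share or within 1.5 times of the count or difference, and 30 moved. Only the differences in median fold could change sign, and 0 did. Why values moved was not tested, beyond what each rule does by construction. The values below are the share of ERG shRNA 2, the share of ERG shRNA, the pairs, the shared peaks without a luciferase peak, and the shared minus other median fold in ERG shRNA, where they moved. A reciprocal overlap of 50% gave 17.01%, 0.191%, 33, 11 and 1.62. A gap of at most 1000 bp gave 39.2%, 0.520%, 102 pairs and 43. Summits within 100 bp gave 20.6% and a difference of 1.80. With no region left out the first share was 12.0%. Both ERG shRNA lists at a fold of at least 4 gave 37.5%, 33 pairs, 9 and 1.86. The ERG shRNA list at a q of at most 0.05 gave 20.6%, 14 and 1.27. Its 194 strongest peaks gave 3.61% in both directions, 7 pairs, 0 without a luciferase peak and 2.88, with a difference of 1.99 in ERG shRNA 2. Added after seeing the data, leaving out contigs and the 5 Mb flanks gave 34.5%, 0.210%, 31, 8 and 2.15. With a luciferase peak within 1000 bp of either peak counted, 16 shared peaks had none. No paired analysis was possible because there was 1 library a side. Depth differed by 10.7 times between the hairpins, and peak lists cannot be thinned to a common depth.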
